A study of Sus scrofa with 2 samples.

Results

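Smooth muscle contractile genes in the ovary were examined through ACTA2, TPM2, CNN1 and DES, which were measured by 15 probes on a porcine Agilent array. These 4 genes, out of 2363 with a value in all, were chosen by name, with earlier results of these data known. Their probes were those that carry a RefSeq transcript accession of the gene in the pig annotation. ACTA2 was read by 4 probes, TPM2 by 5, CNN1 by 2 and DES by 4. RNA came from ovarian tissue from which the corpora lutea had been removed, taken on day 15 of the estrous cycle. The conventional pigs were Yorkshire sows and the minipigs were Midget minipigs, all 10 months of age, and no treatment is described for either breed. Ovaries of 5 animals per breed were collected, and how many of them contributed RNA to each array was not given in the sources used here.

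Smooth muscle shortens when myosin pulls on actin filaments. ACTA2 encodes smooth muscle alpha-actin, the main subunit of those filaments, and TPM2 encodes beta-tropomyosin, a rod-shaped protein that lies along them. CNN1 encodes calponin, which binds the actin filament and restrains the myosin motor, and DES encodes desmin, an intermediate filament protein that ties the contractile units to each other and to the cell surface. In the ovary, such cells form the walls of arteries and veins, surround growing follicles in the theca externa and lie scattered in the stroma.

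There was 1 array for each breed, called the pig array and the minipig array, both on the same slide, so that no difference has a replicate check, no test was run and all values describe these 2 arrays. A level is the log2 intensity of a probe minus the 75th percentile of its array, and a log2 difference is the level on the pig array minus that on the minipig array. Of 43597 probes, 88.1% were well above background on the minipig array and 85.2% on the pig array, by the flag that the scanner software gives each spot, and 38883 had a difference or a bound. The median log2 difference over these was -0.12, and it moved by 0.15 with median centring and by 0.11 with quantile normalization. Among 42 probes printed several times, the spots of a probe spread by an SD that corresponds to 0.25 for a log2 difference between single spots, which leaves out the variation between animals. The deposited table of normalized values gives the breeds the other way round from the scanner files. Its minipig column follows the pig array with a fixed offset, to within 7.46e-07 over 5613 probes printed once, and its other column follows the minipig array in the same manner. Under its own labels the table holds 2923 probes past 2-fold towards its pig column and 2694 towards its minipig column, and no others. The summary of directions in the study, read as pig relative to minipig, is set the way the scanner files are labelled and not the way the table is. Directions here rest on the scanner files' labels, and the table's labels would turn every one of them round.

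The 4 genes separated into a pair with much lower signal on the pig array and a pair with nearly equal signal on both arrays. DES was 3.99-fold and CNN1 2.49-fold higher on the minipig array, and all 6 of their probes were past 2-fold. ACTA2 and TPM2 differed by 1.07-fold and 1.29-fold, with higher signal on the pig array, although quantile normalization gave both the opposite sign and loess normalization did so for ACTA2. Thus 2 of the 4 genes passed 2-fold towards the minipig array, as did 7.96% of all 2363 genes. None passed it towards the pig array, as 11.7% of all genes did, and 19.7% of all genes passed it in either direction. Among the 15 probes, 6 passed 2-fold towards the minipig array and none towards the pig array, against 8.94% and 7.48% of all probes and 16.4% in either direction. Since the genes were chosen with earlier results of these data known, these counts are no independent measure of an excess. Every one of the 15 was well above background on both arrays, so no member value rests on a bound. In tissue RNA of this kind, fewer smooth muscle cells and less RNA per cell cannot be told apart.

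**Figure D1:**
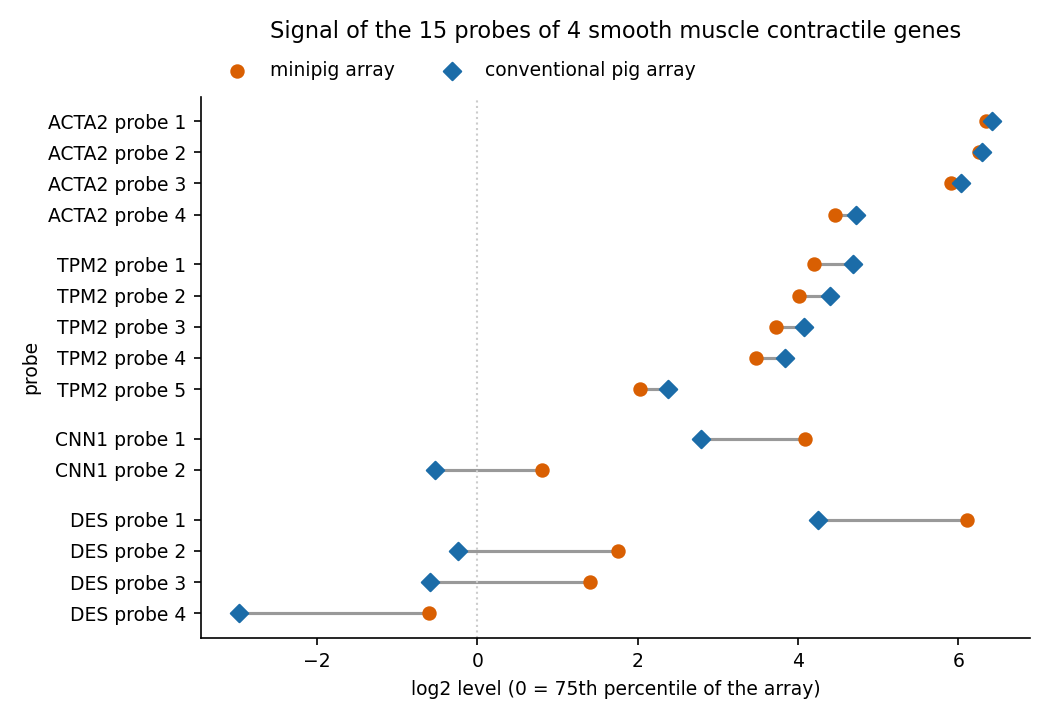
Log2 level (0 is the 75th percentile of each array) of every probe of ACTA2, TPM2, CNN1 and DES, with circles for the minipig array and diamonds for the pig array, 1 array each, and a grey line joining the values of a probe. The diamonds lie to the left of the circles for all 6 probes of CNN1 and DES and slightly to the right for the 9 probes of ACTA2 and TPM2, a direction that quantile normalization reverses in the medians of both genes and loess normalization in that of ACTA2.

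Desmin showed the widest difference of the 4 genes. Its brightest probe gave an intensity of 33979 on the minipig array and 9764 on the pig array. The next probe gave 1665 and 433, in the same order, and another gave 1309.8 and 340.1. The dimmest gave 326 on the minipig array and 65.3 on the pig array. Every DES probe was thus brighter on the minipig array whatever its own brightness. Their log2 differences were -1.85, -2.00, -2.00 and -2.37, with a median of -2.00 and an SD between probes of 0.22. The error that the scanner software assigns to these intensities corresponds to 0.20 to 0.21 for a log2 difference. DES held place 39 from the lowest among the differences of the 2363 genes, so that 1.61% of the genes lay lower. Across the alternative scalings and filters of the scanner values, its difference lay between -2.13 and -1.84.

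Calponin moved in the same direction as desmin and less far. The brighter CNN1 probe gave 8421 on the minipig array and 3562 on the pig array, and the dimmer probe gave 867 and 356. The minipig array was brighter for both. The log2 differences of -1.29 and -1.34 had a median of -1.32, and 4.74% of all genes had a lower value. The probes of CNN1 differed from each other by less than the spot error, with an SD of 0.03, whereas the median SD between probes of a gene was 0.20 over 1220 genes with several probes well above background. DES and CNN1 were 2 of 37 genes among these 1220, or 3.03%, in which every probe passed 2-fold towards the minipig array.

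Smooth muscle alpha-actin had the smallest difference of the 4 genes. Its 4 probes gave 40285, 37800.2, 29676 and 10897 on the minipig array. On the pig array the same probes gave 43954, 40382, 33562.5 and 13584. The intensities of each ACTA2 probe were therefore close on both arrays. The log2 differences ran from 0.04 to 0.27, with a median of 0.10, and this size is within the spread of 0.25 between repeated spots. Only 12.7% of all genes had a difference of smaller size. The sign is not settled, since the median was -0.17 after quantile normalization and -0.07 after loess normalization, against 0.25 after median centring.

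Beta-tropomyosin was read by 5 probes. Their intensities on the minipig array ran from 2019.8 to 9063, with a median of 6520.1. The range on the pig array was 2668 to 13228, with a median of 8657. Each TPM2 probe was brighter on the pig array, and the log2 differences ran from 0.35 to 0.49, a narrow range with an SD of 0.06. The median was 0.36, somewhat above the spread between repeated spots. It fell to -0.0049 after quantile normalization and rose to 0.52 after median centring, so that the direction of TPM2 depends on how the arrays are set to each other. For 42.8% of all genes the difference was smaller in size.

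**Figure D2:**
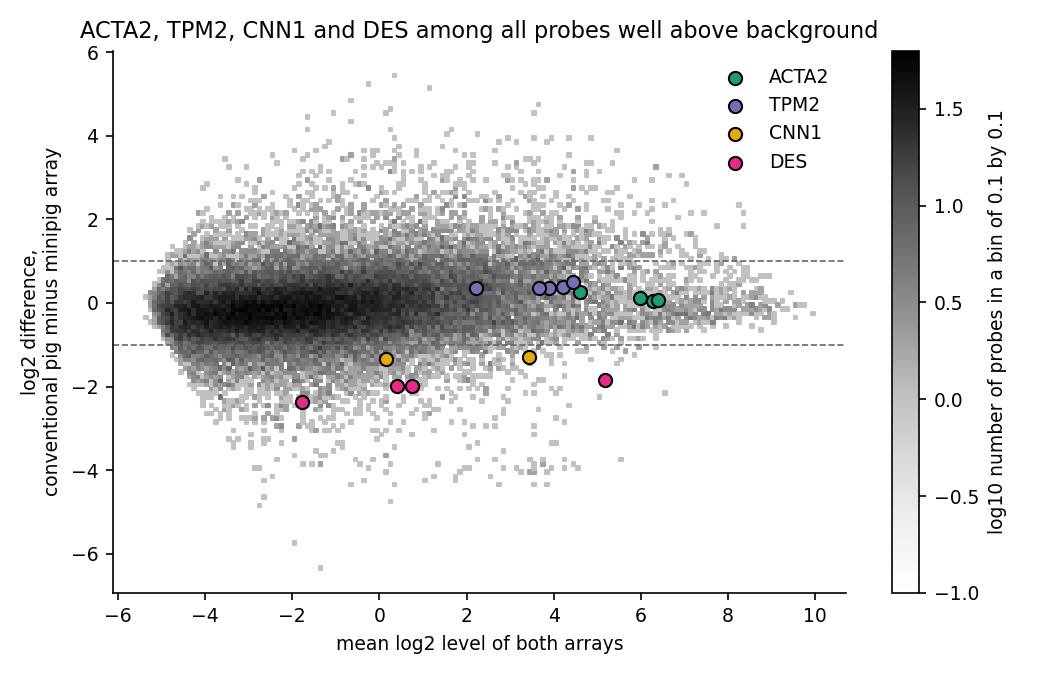
Log2 difference (conventional pig minus minipig array) against the mean log2 level of both arrays for 36659 probes well above background on both, as grey bins shaded by the log10 number of probes, with the probes of the 4 genes as coloured points and dashed lines at 2-fold. DES and CNN1 lie below -1 at dim and at bright levels, while ACTA2 and TPM2 lie close to 0, and quantile normalization changes the sign of the latter medians.

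A ratio between genes on the same array does not depend on the constant subtracted from that array. The ratio of DES to ACTA2 was 4.28-fold lower on the pig array than on the minipig array, and all 16 combinations of their probes had this direction, with differences in log2 of 1.89 to 2.64. The ratio of CNN1 to ACTA2 was 2.67-fold lower, in all 8 combinations. The combinations reuse the same probes on the same 2 arrays and follow from the probe ranges given above, so they are no repeated checks. Against TPM2, DES was 5.13-fold and CNN1 3.20-fold lower on the pig array. DES also fell short of CNN1 by a ratio of 1.60-fold, and its 4 probes all lay below both CNN1 probes. ACTA2 and TPM2 were closest to each other, with a ratio that differed by 1.20-fold between the arrays. These ratios show unequal differences among the members and do not show that any of them was equal in both breeds.

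Other proteins of the actin and myosin filaments were taken from a list of 38 genes, of which 10 could be named on the array. Of these 10 genes, 5 were higher on each array. FHL1 alone passed 2-fold towards the minipig array, and none did towards the pig array, against 7.96% and 11.7% of all genes. The median log2 difference of the 10 genes was 0.11, and that of all genes was 0.04. Genes that usually define smooth muscle, such as MYH11, TAGLN, LMOD1 and MYL9, were not matched to probes and were not analysed here.

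FHL1, a LIM domain protein abundant in muscle, was measured by 16 probes, and 15 of them were brighter on the minipig array. The brightest of all 16 gave 17837 on the minipig array and 10122 on the pig array. The median log2 difference of the 16 probes was -1.04, from -1.44 to 0.10. Past 2-fold towards the minipig array were 11 probes, against 8.94% of all probes. This median was -0.98 after normexp background correction and -0.89 after median centring, which are short of 2-fold.

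**Figure D3:**
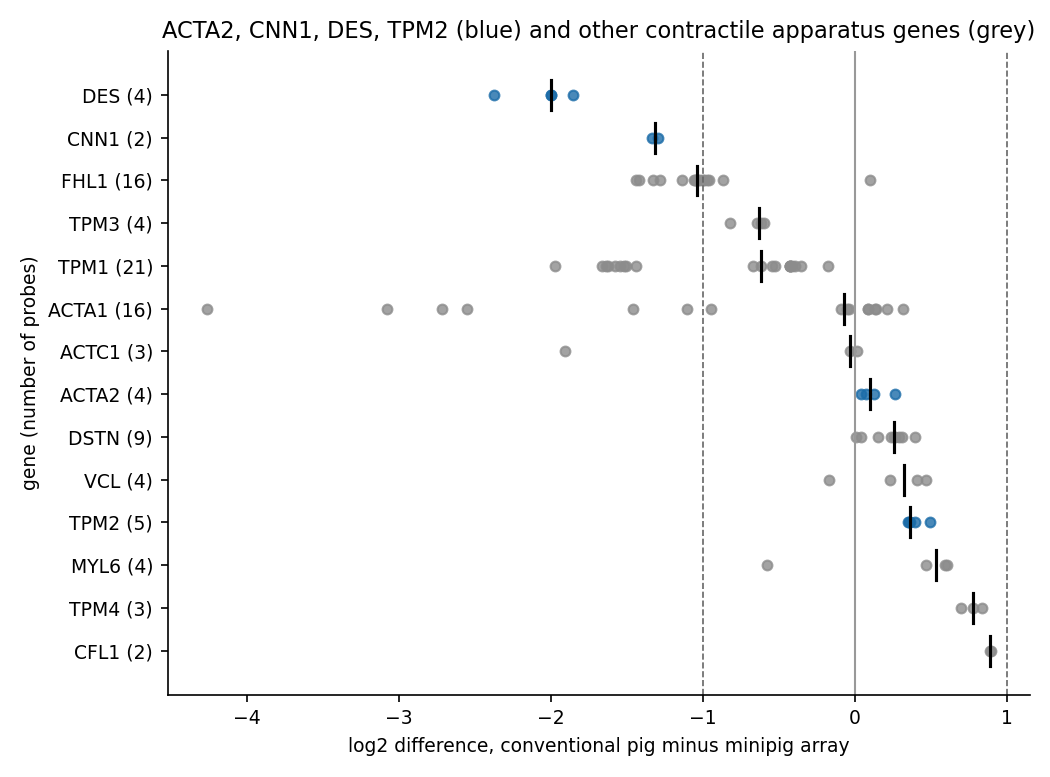
Log2 difference (conventional pig minus minipig array) of each probe of ACTA2, CNN1, DES and TPM2, in blue, and of 10 other contractile apparatus genes, in grey, ordered by the median over probes (black bar), with dashed lines at 2-fold and the number of probes in brackets. DES, CNN1 and FHL1 have medians below -1, and probes of ACTA1 and TPM1 spread widely around theirs. The medians of ACTA2, TPM2, VCL and DSTN, above 0 here, and those of ACTA1 and ACTC1, below 0 here, change sign under at least 1 other scaling.

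The other tropomyosins did not share the values of TPM2. TPM4 had a median log2 difference of 0.78 from 3 probes, which spanned 0.70 to 0.84. TPM3 had a median of -0.63 from 4 probes, which spanned -0.82 to -0.60. Tropomyosin genes therefore lay on both sides of 0, and these signs held under all 4 other scalings, while that of TPM2 did not. TPM1 encodes alpha-tropomyosin, and its transcripts are spliced into several forms. Its 21 probes carried the same accession and fell into groups with a gap between them. In 9 probes the log2 difference was -1.97 to -1.44, and in the other 12 it was -0.67 to -0.18. The first group had intensities of 96.2 to 1231 on the minipig array and 34.8 to 470 on the pig array. The second had 741 to 6037 and 680 to 4668. The position of each probe in the transcript was not given in the sources used here, and this grouping was made after the values were seen.

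Muscle actins are nearly identical in their coding sequences, so that probes of one may bind transcripts of another, and binding across them was not tested. ACTA1, the actin of skeletal muscle, was read by 16 probes that disagreed widely. The 8 probes with a level of at least 1 on the minipig array, a limit chosen after the values were seen, had intensities of 2172 to 29415 there. On the pig array they gave 2476 to 33692, and their log2 differences of -0.05 to 0.32 were close to those of ACTA2. The other 8 probes gave 299 to 765 on the minipig array and 18.7 to 745 on the pig array. Their log2 differences ran from -4.27 to -0.09, and 6 of them were past 2-fold, against 8.94% of all probes towards the minipig array. ACTC1, the actin of heart muscle, had 1 probe near equality, at 0.02 with intensities of 13534 and 14213, 1 at -1.91 and 1 at -0.03. The medians of ACTA1 and ACTC1 are uncertain for this reason and changed sign after median centring.

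**Figure D4:**
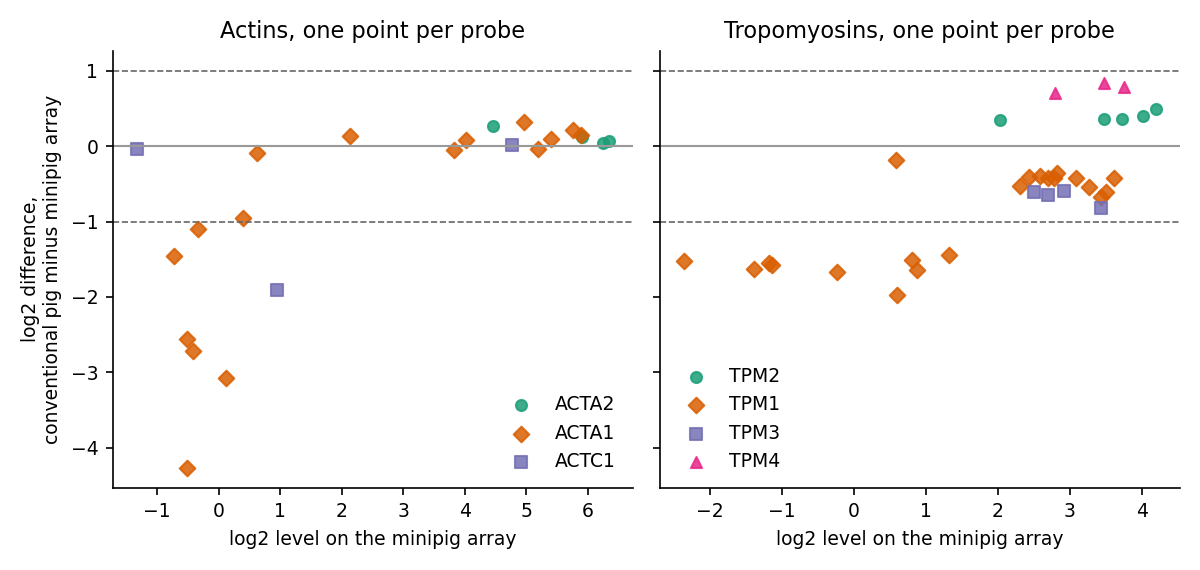
Log2 difference (conventional pig minus minipig array) of every probe of 3 actin genes (left) and 4 tropomyosin genes (right) against the log2 level of the probe on the minipig array, with dashed lines at 2-fold. Bright ACTA1 and ACTC1 probes lie beside those of ACTA2 near 0 and dim ACTA1 probes reach -4.27, while the TPM1 probes form groups with medians of -1.58 and -0.42.

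Among the remaining filament genes, MYL6, the light chain of smooth muscle and nonmuscle myosin, had a median log2 difference of 0.53. Its probes disagreed, as 3 lay between 0.47 and 0.61 and the other gave 15237 on the minipig array and 10577 on the pig array, or -0.58. VCL, which encodes vinculin of cell adhesions, had a median of 0.32, and DSTN, which encodes the actin-severing protein destrin, one of 0.26. Both changed sign after quantile normalization. CFL1, which encodes cofilin, had a median of 0.89 from 2 probes that differed by less than 0.01.

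Contraction is started by calcium and calmodulin through myosin light chain kinase, and is ended by myosin phosphatase. A list of 34 genes for this control and its receptors had values for 18, of which 9 were higher on each array. After quantile and loess normalization 11 were higher on the pig array and 7 on the minipig array. With normexp correction and median centring these numbers were 10 and 8. MYLK, which encodes the kinase, had a median log2 difference of -0.20, and its 9 probes ran from -0.31 to -0.08. PPP1CB, the catalytic subunit of the phosphatase, had a median of 0.53 over 10 probes. PLN, which encodes phospholamban, a brake on the calcium pump, had a median of -0.61, with all 6 probes from -0.76 to -0.38. None of these 3 genes was past 2-fold.

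Receptors and ligands that act on smooth muscle held all 5 genes of this list that were past 2-fold, 4 of them brighter on the pig array and 1 brighter on the minipig array. In all genes, 11.7% were past 2-fold in the first direction and 7.96% in the second. OXTR, the oxytocin receptor, gave 58.9 on the minipig array and 1714 on the pig array from 1 probe, a log2 difference of 4.81. PTGFR, the receptor of prostaglandin F2 alpha, gave 118 and 684 from 1 probe, a difference of 2.48. Both receptors are also found in luteal cells, and PTGFR stands in the list of luteal markers as well. Each was several times brighter on the pig array.

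The endothelin receptors went in opposite directions. EDNRA, the receptor through which endothelin contracts vascular smooth muscle, gave 684 on the minipig array and 262 on the pig array from 1 probe, a log2 difference of -1.44. EDNRB, which is prominent in endothelium, gave 263 and 3196 from 1 probe and 116 and 556 from the other, with a median of 2.88. EDN1, which encodes the ligand, gave 30.0 and 94.7 from 1 probe, a difference of 1.60 that was 0.73 after normexp correction. EDNRA thus had the sign of DES and CNN1, and its ligand and the other receptor the opposite sign.

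Transcription of smooth muscle genes is driven by serum response factor with its coactivator myocardin, and is raised by TGF-beta. Of 20 genes listed for these regulators, 11 had a value, 4 higher on the pig array and 7 on the minipig array, with a median log2 difference of -0.40. MYOCD, which encodes myocardin, gave 1208 on the minipig array and 461 on the pig array from its brighter probe, a difference of -1.44. The dimmer probe gave 144 and 137, a difference of -0.13, so that the probes of MYOCD disagree. TGFB3 was the only gene of these 11 with a median past 2-fold, at -1.09, from probes at -0.86 and -1.31. Of all genes, 7.96% passed it in that direction. TGFB3 was short of 2-fold after median centring at -0.93 and after normexp correction at -0.89. TGFB1 had the opposite sign, at 0.69. GATA6, a transcription factor of vascular smooth muscle and of ovarian cells, had a difference of -0.91 from 1 probe. It passed 2-fold after quantile (-1.05) and loess (-1.01) normalization. TEAD1 had a difference of -0.48.

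**Figure D5:**
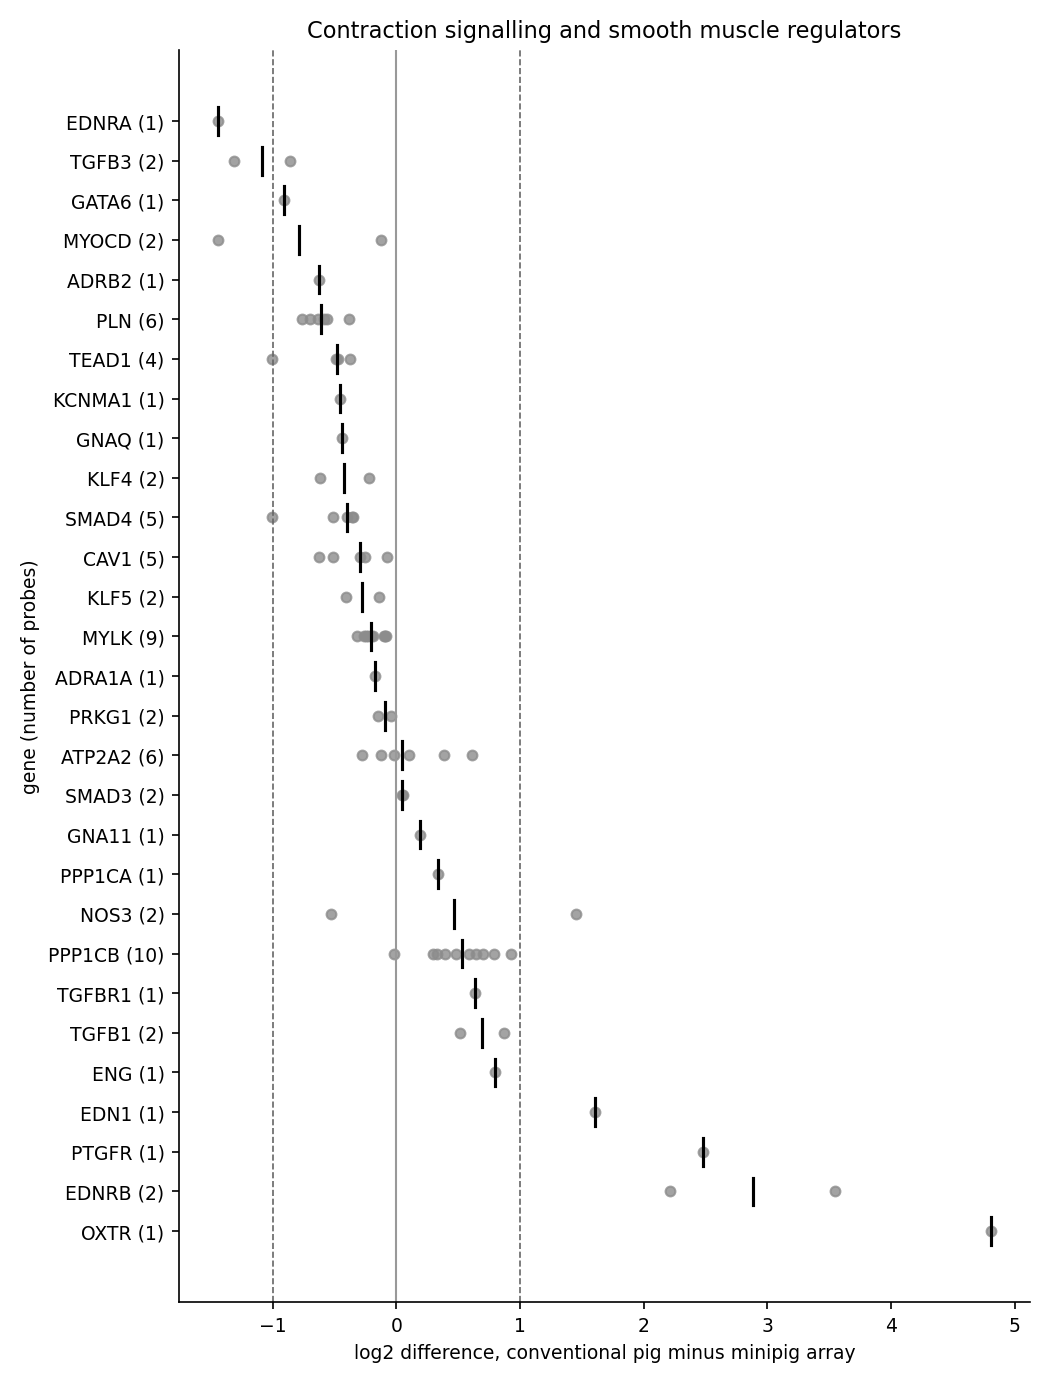
Log2 difference (conventional pig minus minipig array) of each probe (grey points) and the median over probes (black bars) for 29 genes of contraction signalling and smooth muscle regulation, with dashed lines at 2-fold and the number of probes in brackets. EDNRA and TGFB3 lie below -1, and EDN1, PTGFR, EDNRB and OXTR lie above 1.

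Markers of other cells differed between the arrays too, some with the sign of DES and CNN1 and some with the opposite sign, and their part in the values of DES and CNN1 was not tested. Of the pericyte and smooth muscle markers, 2 of 12 had a value and both were higher on the pig array, opposite to DES. RGS5, a marker of pericytes, gave 3158 and 2111 on the minipig array and 6625 and 4795 on the pig array. Its median log2 difference of 1.07 was short of 2-fold after quantile (0.79) and loess (0.85) normalization. ANGPT1, the other marker, had a difference of 0.54 from 1 probe and was dimmer, at log2 levels of -1.30 and -0.76. The summed level of the markers, in multiples of each array's 75th percentile, came to 5.63 for the minipig and 11.6 for the pig, mostly from RGS5. Summed levels, here and below, are weighted towards genes with bright probes. Levels of different probes are not comparable, so these sums are no measure of cell numbers. All 4 endothelial markers with a value, out of 13, were higher on the pig array, with summed levels of 3.75 and 5.86, and none was past 2-fold, although 1 was after median centring, quantile and loess normalization. Of the fibroblast and stroma markers, 2 of 13 had a value, and they went in opposite directions. DCN, which encodes decorin, had a log2 difference of -0.36, and THY1 one of 0.68. The summed levels of 47.2 and 36.0 came almost wholly from DCN, since THY1 was dim, at log2 levels of -2.10 and -1.43.

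Follicle cell markers are read against the 7.96% of all genes that passed 2-fold towards the minipig array and the 11.7% that did so towards the pig array. Of 10 granulosa markers with a value, out of 13, 8 passed it towards the minipig array, and the summed level was 47.5 there and 18.5 on the pig array. The count was 7 with normexp correction, quantile and loess normalization, without GATA4, and 6 with median centring, without GATA4 and AMH. It includes INHBA, whose probes disagreed in sign at -3.91 and 0.37, and AMH, whose probes ran from -2.22 to -0.09. CYP19A1 (0.09) and FST (-0.08) were short of 2-fold. All 7 oocyte markers with a value, out of 11, were higher on the minipig array, with summed levels of 4.02 and 1.82, except that normexp correction turned the sign of BMP15. Theca markers, with values for all 7, had a median log2 difference of 0.02. INSL3 (-3.76) and CYP17A1 (-1.74), which mark the androgen-producing theca cells, passed 2-fold towards the minipig array. STAR, CYP11A1 and HSD3B1, of early steroid synthesis, passed it towards the pig array and stand in the luteal list as well. The theca levels summed to 106.9 for the minipig and 212 for the pig, of which STAR gave 16.2 and 146. Of 8 luteal markers with a value, out of 9, 5 passed 2-fold towards the pig array, these 3 among them, with summed levels of 100.4 and 296. Most of both sums came from STAR and OXT, and OXT had a log2 difference of only 0.33. LHCGR (-0.62), which stands in the theca list too, and PRLR (-0.55) were higher on the minipig array. Leukocyte markers had values for 6 of 11, with summed levels of 4.59 and 5.86.

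Desmin and some tropomyosins are shared with striated muscle, whose markers were largely dim. Of 28 such genes, 20 had a value, with summed levels of 14.4 on the minipig array and 11.5 on the pig array, and on both arrays 16 of their 98 probes failed the background flag. CSRP3, a protein of heart and slow muscle, failed it on both. The skeletal myosin gene MYH1 was well above background in 2 of 7 probes and MYH4 in 3 of 8 on both arrays. The median log2 difference of the 20 genes was -0.10. The brightest of them on the minipig array were MYOG (log2 level 2.60), ACTA1 (1.38) and ACTC1 (0.94), which gave much of the sum there. MYOG gave 2988 on the minipig array and 1913 on the pig array from 1 probe, a difference of -0.70. Of the ACTA1 and ACTC1 probes described above, 6 and 1 passed 2-fold towards the minipig array, as did 8.94% of all probes. By their medians, TNNC1 (-1.24) and TCAP (-1.15) passed 2-fold towards the minipig array and TNNC2 (2.16) towards the pig array. Of all genes, 7.96% and 11.7% passed it in these directions. TCAP was short of 2-fold under the 4 other scalings and TNNC2 after normexp correction. CKM (0.97) passed it towards the pig array after median centring (1.12), quantile (1.08) and loess (1.08) normalization.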

How the data were processed

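Total RNA was labelled with Cy3 and hybridised to a single-colour porcine 4 x 44K array. The authors deposited spot intensities from Agilent Feature Extraction 10.7.3.1, which subtracts background and does not normalize between arrays. A deposited table holds log2 values of 5617 probes, normalized with GeneSpring per the methods. All of these probes are past 2-fold in it, so which probes it holds follows from their differences. It holds the 6 probes of CNN1 and DES and none of ACTA2 and TPM2. Comparison with the scanner values showed log2 minus a constant per array, with column medians of -0.93 (minipig) and -0.66 (pig). Its breed labels are the reverse of those of the scanner files, which were used. Samples were grouped by the labelled breed.

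Control spots and outlier spots (5 on the minipig and 10 on the pig array) were left out, none was saturated, and repeated spots were averaged as log2 values. The 75th percentile of each array (intensity 494 for the minipig, 513 for the pig) was subtracted. A probe well above background on 1 array only was set against the lowest such signal of the other array, as a bound. Unversioned accessions were matched to the RefSeq table of Sscrofa11.1, which named 12.8% of the probes, and the other probes were not named here. Genes take the median of their probes, and summed levels add these medians as linear values. The number of arrays limits the precision.

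The members and gene lists were chosen with earlier results of these data known. Genes named are the 4 members, listed genes with a median past 2-fold and all probes well above background on both arrays, defining markers, and others chosen after their values were seen. Naming the genes nearest in level to each member was planned and left out, since levels of different probes are not comparable. Alternatives were normexp correction (offset 50), median centring, quantile and loess normalization (span 0.3), 2 other filters on dim probes, the deposited table, and the brightest probe or the mean of the probes. The files used here have no gene symbol column, so naming by symbol could not be run. Python 3.11.15 (numpy 2.4.6, pandas 2.3.3, statsmodels 0.14.6, matplotlib 3.10.9) and R 4.3.3 (limma 3.58.1) were used, and the steps were tested on simulated data.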

Additional observations from a re-analysis of the deposited data

How the results depend on the processing

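DES and CNN1 kept their direction and stayed past 2-fold under the 8 alternatives computed from the scanner values. The log2 differences were -2.13 to -1.84 for DES and -1.50 to -1.16 for CNN1. The 2 filters on dim probes among these could change no member, since every member probe was well above background on both arrays. For CNN1, with 2 probes, the mean over probes equals the median and is no separate check. Under its own breed labels the deposited table gave 2.001 for DES and 1.32 for CNN1, so that 2 genes and 6 probes were past 2-fold on the pig array and 0 genes and 0 probes on the minipig array. That table exchanges the breeds and holds only probes past 2-fold, so it lists no probe of ACTA2 or TPM2. Its values for DES and CNN1 were past 2-fold by construction and are no separate check. Quantile normalization gave -0.17 for ACTA2 and -0.0049 for TPM2, and the cause was not tested. The median of the 4 genes lay between -0.84 and -0.45. Among other contractile apparatus genes, the number past 2-fold on the minipig array went from 1 to 0 with normexp correction, median centring and the brightest probe. The number on the pig array went from 0 to 1 with median centring. In the deposited table these numbers were 0 and 4, which its labels and its restriction to probes past 2-fold fix in advance. Normexp correction lowered the number of all probes past 2-fold on the minipig array from 3475 to 1411. Of all probes past 2-fold, 54.4% were brighter on the minipig array, and this became 40.2% with median centring and 41.1% with normexp. No paired analysis was possible because each breed has 1 array. Probes not well above background on either array, 4695 in all, limit what dim genes can show.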
